A study of Mus musculus with 18 samples.

Results

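The miR-106b-25 cluster is a group of microRNAs (miRNAs) that lie side by side in the gene Mcm7, and its 4 members measured here were mmu-miR-106b-5p, mmu-miR-106b-3p, mmu-miR-93-5p and mmu-miR-25-3p. They were chosen by name, as the mature miRNA rows with these identifiers, and they are 4 of the 1978 mature miRNAs in the count table. All 4 were among the 1054 mature miRNAs with at least 1 count. The libraries came from brain cells of mice on a C57BL/6 background at 10 months of age, either wild type (WT) or homozygous for Atxn2-CAG100-KIN (KIN), a knock-in allele with a long CAG repeat in Atxn2 that serves to model SCA2, an inherited ataxia. By the methods of the study, KIN and WT animals were littermates of the same sex from heterozygous parents, and each brain was dissociated and sorted with magnetic beads in sequence. Microglia were bound by the surface protein CD11b, astrocytes by the antigen ACSA-2, and neurons were what remained after other cells had been bound. The result was 18 small RNA libraries in 6 groups (astrocytes, microglia and neurons, each from WT and KIN) with 3 libraries per group. The labels call them biological replicates, and the study used 3 pairs of a KIN and a WT animal, of both sexes, but no label ties a replicate number to an animal or gives its sex.

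MiRNAs are short RNAs that guide Argonaute proteins to messenger RNAs, mainly through base pairing of the seed, bases 2 to 8 counted from the 5′ end, and repress them. The miR-106b-25 cluster is transcribed together with Mcm7, which encodes a subunit of the helicase that opens DNA for replication, and it is a paralog of the miR-17-92 cluster, known for its part in cell proliferation and in tumours. Each hairpin precursor is cut into a 5p and a 3p arm, of which 1 usually predominates.

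The members' sequences are shown first because the seed sorts them into families, with the seed in capitals. All sequences are from RefSeq and were the same as those in the deposited table. The lengths of the members range from 21 to 23 bases, and only reads of at least 20 bases were kept. Whether length sets their counts apart was not tested. How evenly the different sequences were captured was not measured, so a difference in counts between members need not be a difference in amount.

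mmu-miR-106b-5p: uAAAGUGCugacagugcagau
mmu-miR-93-5p: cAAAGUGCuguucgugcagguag
mmu-miR-17-5p: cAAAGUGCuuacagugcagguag
mmu-miR-20a-5p: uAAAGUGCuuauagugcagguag
mmu-miR-25-3p: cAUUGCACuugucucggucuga
mmu-miR-92a-3p: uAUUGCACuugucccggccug
mmu-miR-92b-3p: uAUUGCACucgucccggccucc
mmu-miR-106b-3p: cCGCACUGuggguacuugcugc

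The members miR-106b-5p and miR-93-5p share the seed AAAGUGC with miR-17-5p and miR-20a-5p of the miR-17-92 cluster. The member miR-25-3p has the seed AUUGCAC, shared with miR-92a-3p of miR-17-92 and with miR-92b-3p, which is encoded elsewhere. The 3p arm of miR-106b has a seed of its own, CGCACUG. Because the placement of reads in the miRNA round required 0.9 points per base, full-length reads of the members could not be placed on a relative. A full-length read of miR-106b-5p scored 16 on miR-17-5p, below its minimum of 18.9. A read of miR-93-5p scored 17 on miR-20b-5p against a minimum of 20.7, and one of miR-25-3p scored 16 on miR-92a-3p against 19.8.

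In GRCm39, the build that mm39 also names, the Mcm7 gene occupies chr5:138162844-138170684 on the minus strand. The hairpin gene Mir106b lies at chr5:138163999-138164080, Mir93 at chr5:138163785-138163872 and Mir25 at chr5:138163583-138163666, so that the hairpins span 498 bases. All 3 hairpins are in intron 13 of the protein-coding transcript ENSMUST00000000505, which has 15 exons. Mir93 and Mir25 are also inside exon 1 of ENSMUST00000125316, an annotated retained-intron transcript of Mcm7 with 2 exons, and Mir106b is outside it. In transcript order, miR-106b comes first, then miR-93 and miR-25.

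Because reads that missed the miRNA round could be counted on the hairpin or on the retained-intron transcript in a later round, the locus was also summed. Over the 18 libraries it held 38792 counts, of which 51.9% were on mature names, 27.7% on the hairpin transcripts and 20.4% on the retained-intron transcript. The split differed between members. The Mir93 hairpin held 6143 counts beside 8976 of miR-93-5p, and the Mir106b hairpin held 2846 beside 7785 of miR-106b-5p. The mature share was 50.9% ± 1.48 (SD, n = 3) in WT and 51.6% ± 1.35 in KIN astrocytes, and 53.1% ± 1.03 and 53.2% ± 1.20 in microglia. It was 47.9% ± 2.36 and 48.5% ± 0.79 in neurons, so that within a fraction the mature share differed between genotypes by less than 1 SD. The other 9 Mcm7 transcripts together held 59 counts, and the helicase genes Mcm2 to Mcm6 held 13 to 24 each. These host transcripts were thus sparse in the small RNA libraries.

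The libraries held between 1211118 and 4316748 counts, lowest in WT neurons. The share of mature miRNAs in all counts was 6.48% ± 1.66 in WT and 9.30% ± 0.97 in KIN astrocytes, 5.42% ± 0.50 and 7.56% ± 1.47 in microglia, and only 1.33% ± 0.53 and 1.69% ± 0.41 in neurons (mean ± SD, n = 3). Levels of a miRNA are therefore given on 2 scales, as CPM (the count at a library total of 1000000 counts over all features) and scaled to mature miRNA counts alone, and the order of the fractions depends on which is used. By the study, cDNA was prepared from equal RNA amounts, which it does not state separately for the small RNA libraries. Both scales give relative amounts, and in sorted bulk samples fewer cells of a type and less RNA per cell cannot be told apart. The labels were checked against miRNAs typical of cell types. The summed myeloid miRNAs (miR-142a-3p, miR-142a-5p and miR-223-3p) stood at 2835 to 5914 CPM in the microglia libraries and at 10.2 to 48.5 CPM in the astrocyte ones, and the 2 arms of miR-9, typical of astrocytes and the neural lineage, summed to 5835 to 9496 CPM in astrocytes. The neuronal miRNAs (miR-124-3p, miR-128-3p, miR-138-5p and miR-132-3p) summed to 52.8 to 241 CPM in the libraries labelled neurons, below the 1051 to 3224 CPM of the astrocyte libraries, and the neuronal libraries also held 42.9 to 377 CPM of myeloid miRNAs.

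All 3 main arms of the cluster were readily counted in every fraction, while miR-106b-3p was rare. Over the 18 libraries miR-93-5p had 8976 counts, miR-106b-5p 7785, miR-25-3p 2666 and miR-106b-3p 210. The remaining arms of the locus, which are the less abundant partners of miR-93-5p and miR-25-3p, had 462 counts (miR-93-3p) and 50 counts (miR-25-5p). Among mature miRNAs ranked by mean CPM within a group, miR-93-5p held place 39 to 70, miR-106b-5p 33 to 83, miR-25-3p 55 to 133 and miR-106b-3p 210 to 283 over the 6 groups.

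The miR-106b-5p level in astrocytes was 49.3, 94.7 and 63.1 CPM in WT and 158, 116 and 118 CPM in KIN (replicates 1 to 3). The groups did not overlap, and WT replicate 2 was the WT library nearest to KIN. In microglia it was 148, 169 and 199 CPM in WT and 173, 240 and 266 CPM in KIN, and the groups overlapped because KIN replicate 1 lay inside the WT range. Neurons had 25.6, 105.8 and 77.2 CPM in WT and 140, 77.0 and 89.1 CPM in KIN, again with overlap. Ordered by mean CPM, the groups ran from KIN microglia (226 ± 48.2) over WT microglia (172 ± 25.5), KIN astrocytes (130.7 ± 23.6) and KIN neurons (102 ± 33.6) to WT neurons (69.5 ± 40.7) and WT astrocytes (69.1 ± 23.3). The ranges of every 2 neighbours in this order overlapped.

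The miR-93-5p level in astrocytes was 77.9, 116 and 96.9 CPM in WT and rose to 170.4, 165.5 and 165.3 CPM in KIN, where the SD of the 3 libraries was 2.90 CPM. The gap between the highest WT and the lowest KIN library was wider than the range inside either group. In microglia the WT libraries held 184, 182 and 207 CPM, and the KIN libraries 187, 316 and 321 CPM, with KIN replicate 1 again inside the WT range. Neurons held 26.4, 87.4 and 47.1 CPM in WT and 92.2, 54.8 and 69.7 CPM in KIN. In the order of mean CPM (KIN microglia, WT microglia, KIN astrocytes, WT astrocytes, KIN neurons, WT neurons) the ranges of WT microglia and KIN astrocytes, and those of KIN and WT astrocytes, did not overlap, whereas those of the other neighbours did.

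The miR-25-3p level, in contrast, overlapped between genotypes in all 3 fractions. Astrocytes held 21.0, 33.7 and 24.3 CPM in WT and 34.9, 23.7 and 35.5 CPM in KIN. Microglia held 66.2, 52.1 and 65.2 CPM in WT and 52.4, 95.9 and 103 CPM in KIN, and neurons 7.43, 37.3 and 18.3 CPM in WT and 55.5, 24.7 and 31.3 CPM in KIN. The microglial groups were the highest, and the ranges of all neighbours in the order KIN microglia, WT microglia, KIN neurons, KIN astrocytes, WT astrocytes and WT neurons overlapped.

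The rare arm miR-106b-3p rested on 7, 17 and 9 counts in WT astrocytes and 21, 17 and 20 counts in KIN astrocytes, or 2.23, 4.27 and 2.73 against 6.11, 4.74 and 5.37 CPM, without overlap. In microglia it had 13 to 18 counts per library in WT and 17 to 24 in KIN. In neurons it had 0, 5 and 1 counts in WT and 4, 1 and 2 in KIN. The library with 0 counts allows a level of up to 2.48 CPM (3 counts), which is above most of the other neuronal values, so that no difference between genotypes was detectable there at this depth.

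**Figure D1:**
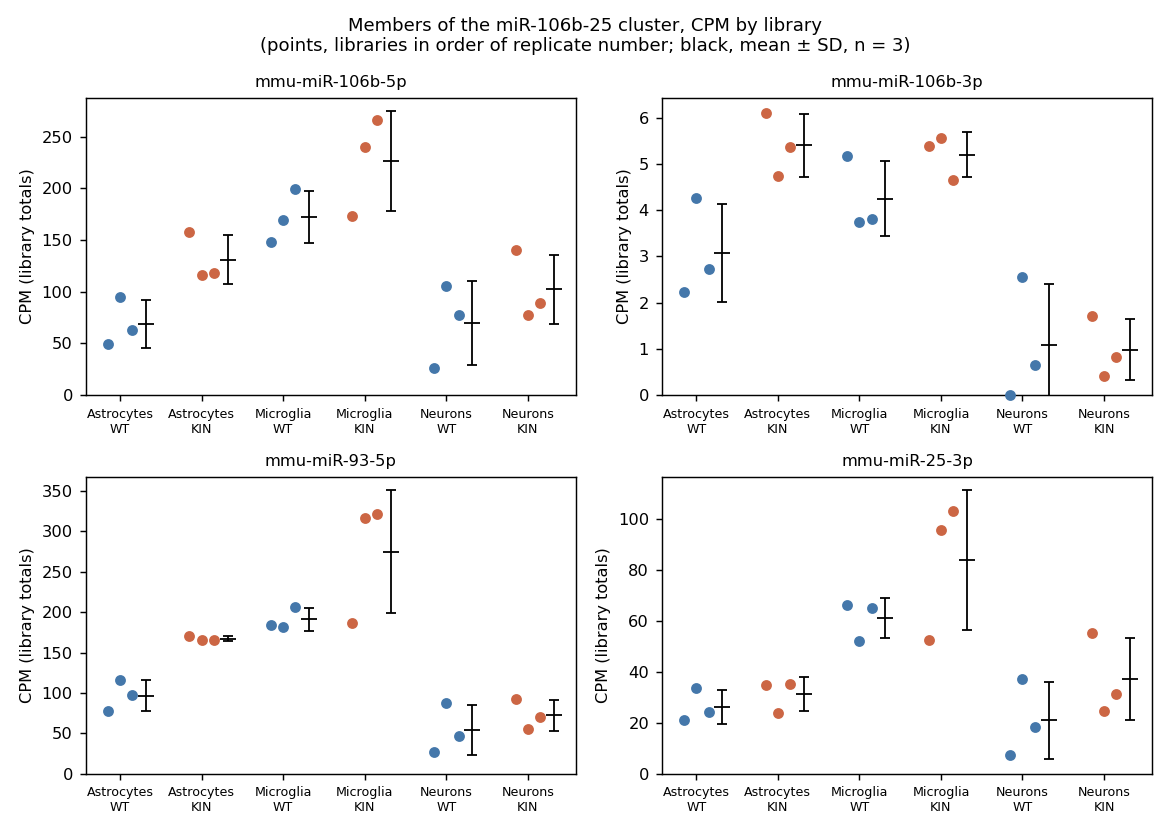
CPM (vertical axis, scaled to library totals, starting at 0) of the 4 members in each of the 18 libraries, with WT in blue and KIN in orange, 3 libraries per group in order of replicate number, and the mean ± SD in black (a bar that would pass below 0 is cut at 0). In astrocytes the KIN libraries of miR-106b-5p (116 to 158 CPM), miR-106b-3p and miR-93-5p lie above all WT libraries, those of miR-25-3p (23.7 to 35.5 CPM) do not, and microglia show the highest levels of 3 of the 4 members.

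Scaled to mature miRNA counts alone (the count at a total of 1000000 mature miRNA counts), the order of the fractions was another. On this scale miR-106b-5p stood at 1051 ± 83.0 in WT and 1399 ± 127 in KIN astrocytes, 3173 ± 264 and 2992 ± 176 in microglia, and 5091 ± 2267 and 5981 ± 546 in neurons. The neuronal libraries, in which miRNAs took up the smallest share of the counts, were thus the highest in mean, and the wide spread in WT neurons came from values of 2655, 5479 and 7139. The miR-93-5p level was 1508 ± 104 and 1807 ± 157 in astrocytes, 3530 ± 66.9 and 3592 ± 350 in microglia and 3874 ± 985 and 4265 ± 123 in neurons. For miR-25-3p it was 407 ± 8.43 and 339 ± 80.7, 1131 ± 134 and 1088 ± 176, and 1466 ± 613 and 2140 ± 406, in the same order. On both scales the microglial libraries lay above the astrocyte ones for these 3 miRNAs, with no overlap within a genotype. In CPM, microglia and astrocytes did not overlap for 48.4% of all features in WT and 52.6% in KIN in either direction, and microglia lay above astrocytes for 19.2% and 21.0%. For mature miRNAs these shares were 72.2% and 71.8% in either direction, and 30.1% and 27.3% with microglia above.

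**Figure D2:**
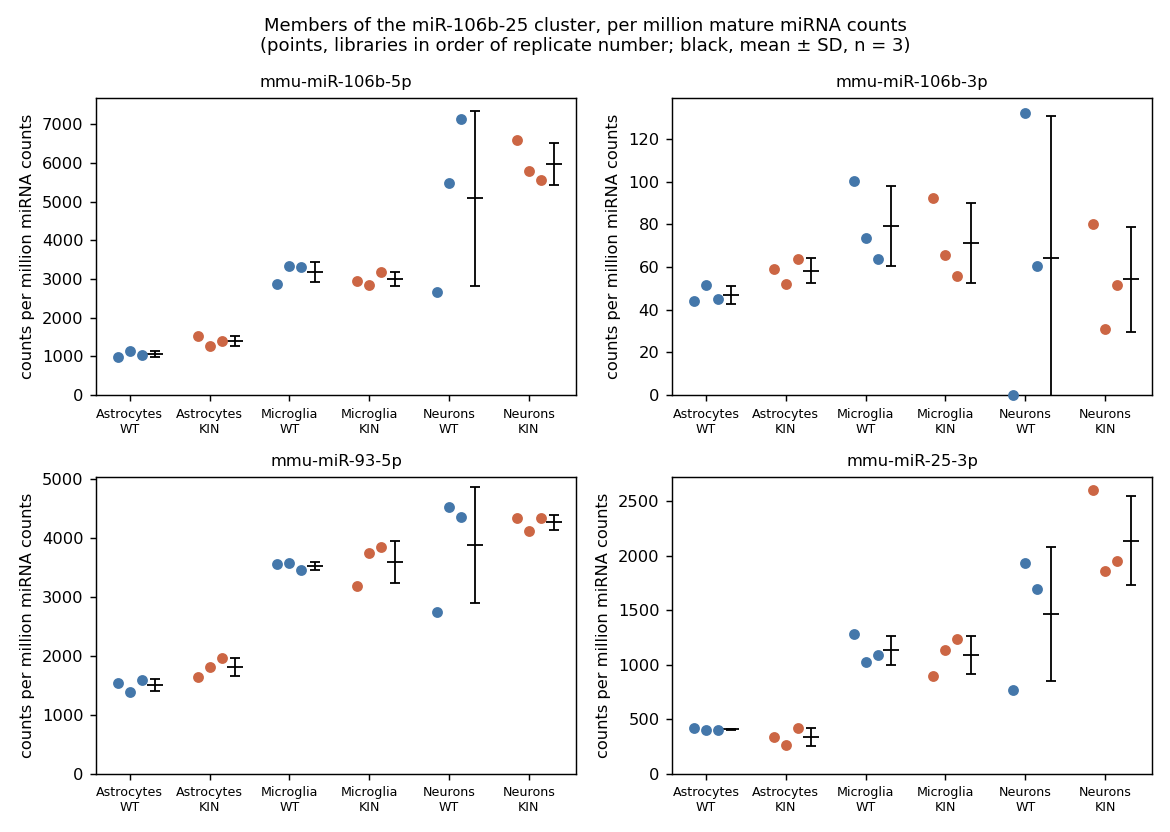
The same 18 libraries scaled to mature miRNA counts alone (vertical axis, counts per 1000000 mature miRNA counts, starting at 0), with WT in blue, KIN in orange and the mean ± SD in black (1 bar cut at 0). The neuronal libraries have the highest mean level of miR-106b-5p, miR-93-5p and miR-25-3p on this scale, the means of WT and KIN microglia lie close together, and KIN astrocytes exceed WT astrocytes for miR-106b-5p, miR-106b-3p and miR-93-5p.

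The comparison of KIN with WT within a fraction asks what the expanded Atxn2 allele changes in each cell type. In astrocytes, miR-106b-5p rose by 1.03 ± 0.25 (log2 fold change ± SE, adjusted p = 0.0330, edgeR quasi-likelihood test with Benjamini-Hochberg adjustment) and miR-93-5p by 0.91 ± 0.18 (adjusted p = 0.0155). These are the 2 members with the seed AAAGUGC. The rare arm miR-106b-3p had a similar estimate, 0.91 ± 0.39, which did not pass (adjusted p = 0.135), and miR-25-3p had 0.37 ± 0.28 (adjusted p = 0.375). Thus 2 of 4 members passed at an adjusted p of at most 0.05, both higher in KIN, beside 12.1% of all 5694 features tested in either direction and 19.9% of the 418 mature miRNAs. Of all features 5.09% passed as higher, and of mature miRNAs 17.7%. The study also asks for a change of 1 or more on the log2 scale, which miR-106b-5p alone reached, and 8.39% of all features met both. Values did not overlap between genotypes for 3 of 4 members, beside 36.7% of all features and 39.5% of mature miRNAs.

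The class of miRNAs as a whole stood higher in these KIN libraries. The median log2 fold change was 0.58 over the mature miRNAs and -0.19 over all features, and 82.8% of the mature miRNAs had a positive value. The median of the 4 members was 0.91. Ranked from the highest fold change down among the 418 miRNAs, miR-106b-5p was number 95, miR-93-5p number 124, miR-106b-3p number 125 and miR-25-3p number 279. With the libraries scaled on mature miRNAs alone, which moved the median of all features to -0.91, the members had 0.37 ± 0.26, 0.22 ± 0.25, 0.27 ± 0.46 and -0.30 ± 0.34 in the order miR-106b-5p, miR-93-5p, miR-106b-3p and miR-25-3p. None of them passed on that scale (smallest adjusted p = 0.264), and miR-25-3p turned its sign.

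The calls in astrocytes, for the members as for all features, changed with the libraries included. Without WT replicate 2, whose miRNA share of 8.30% was near the KIN libraries' 8.43% to 10.3%, all 4 members passed (estimates 0.60 to 1.35, adjusted p up to 0.0499), along with 2097 of 5363 features. Neither miR-106b-5p nor miR-93-5p passed without WT replicate 3 (adjusted p = 0.138 and 0.0866) or without KIN replicate 1, 2 or 3, where adjusted p ran from 0.0978 to 0.116 and from 0.0729 to 0.0768. Their estimates in these 4 fits stayed close to those with all libraries, 0.90 to 1.10 for miR-106b-5p and 0.87 to 0.92 for miR-93-5p, while the features that passed fell from 691 to between 52 and 102. Without WT replicate 1, miR-106b-5p had 0.79 and did not pass (adjusted p = 0.0978), while miR-93-5p had 0.72 and did (adjusted p = 0.0444), among 149 of 4923 features.

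Markers of other cells also differed between these libraries. All 3 myeloid miRNAs had counts in both groups, and their sum was 10.2 to 12.6 CPM in WT and 24.99 to 48.5 CPM in KIN. The difference of the means, 23.2 CPM, equals 0.495% of the myeloid level in KIN microglia. The 2 oligodendrocyte miRNAs (miR-219a-2-3p and miR-338-3p) summed to 830 to 1496 CPM in WT and 1510 to 2148 CPM in KIN, and the 3 epithelial miRNAs of the miR-200 family to 30.9 to 95.3 and 0.27 to 2.79 CPM. Their part in the result was not tested.

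The rest of the locus gave values close to those of its mature arms. In astrocytes the hairpin transcript of Mir106b had a log2 fold change of 1.11 ± 0.29 (adjusted p = 0.0378), that of Mir93 0.93 ± 0.18 (adjusted p = 0.0143) and that of Mir25 0.36 ± 0.29 (adjusted p = 0.418). The retained-intron transcript, which contains Mir93 and Mir25, had 0.81 ± 0.17 (adjusted p = 0.0195). The partner arm miR-93-3p had 0.92 ± 0.30 and did not pass (adjusted p = 0.0658), and miR-25-5p had too few counts to be tested. Hairpin and mature counts come from the same libraries and the same locus, so these are not separate support. Summed over the locus, WT astrocytes had 394 ± 85.6 and KIN astrocytes 667 ± 45.0 CPM.

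In microglia, no member passed, whereas all 4 estimates were positive. They were 0.73 ± 0.22 for miR-93-5p (adjusted p = 0.0857), 0.60 ± 0.22 for miR-106b-5p (adjusted p = 0.132), 0.67 ± 0.25 for miR-25-3p (adjusted p = 0.136) and 0.52 ± 0.36 for miR-106b-3p (adjusted p = 0.440). Of all 4940 features 4.39% passed, and of the 382 mature miRNAs 11.0%. Values overlapped between genotypes for all 4 members, while 26.6% of all features did not overlap. The median was 0.64 over the members, 0.46 over mature miRNAs and -0.11 over all features. The calls depended on single libraries. KIN replicate 1 had a miRNA share of 5.86% against 8.45% and 8.36% in the other KIN libraries, and without it miR-93-5p (0.87, adjusted p = 0.0272) and miR-25-3p (0.85, adjusted p = 0.0355) passed. Without WT replicate 2, miR-93-5p passed (0.79, adjusted p = 0.0382), as it did in DESeq2 with all libraries (0.74, adjusted p = 0.0389). In these 3 fits 371, 1078 and 475 features passed, against 217 in the main comparison.

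In neurons, miR-106b-5p had a log2 fold change of 0.56 ± 0.46, miR-93-5p 0.42 ± 0.43 and miR-25-3p 0.80 ± 0.53, each with an adjusted p of 0.933. The arm miR-106b-3p did not reach the minimum of 5 counts in at least 2 libraries, so that 3 of 4 members were tested. Of all 4535 features tested 0 passed in edgeR, although 181 had an unadjusted p of 0.05 or less, and 0 passed in DESeq2, with 124 at that limit. Values of the 3 overlapped between genotypes, while those of 10.3% of all features did not. Markers of other cells differed here too. The epithelial miRNAs summed to 29.6 to 33.9 CPM in WT and 2.13 to 12.0 CPM in KIN neurons, without overlap. Erythroid (red blood cell) miRNAs summed to 66.8 to 303 and 43.7 to 76.8 CPM, and the arms of miR-9 to 964 to 2265 and 2253 to 4079 CPM, with overlap. Their part in the result was not tested. For a simulated log2 change of 1 in these neuronal libraries the test recovered 2.15% of the changed features, against 26.7% in astrocytes and 3.53% in microglia. The changes were set in randomly drawn features of any count, so these shares do not give the power for the members.

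Whether the genotype acted differently in the fractions was tested directly by an interaction term. For microglia minus astrocytes the difference of the log2 fold changes was -0.42 ± 0.37 for miR-106b-5p, -0.17 ± 0.32 for miR-93-5p, -0.38 ± 0.54 for miR-106b-3p and 0.32 ± 0.40 for miR-25-3p, with adjusted p from 0.802 to 0.944. No member passed for neurons minus astrocytes or neurons minus microglia either, where the smallest adjusted p were 0.734 and 0.795. Of all features 0.369% passed for microglia minus astrocytes and 0.982% for neurons minus microglia. For neurons minus astrocytes 0 of 7084 passed in edgeR, where 588 had an unadjusted p of 0.05 or less, and 0 in DESeq2, with 429 at that limit. A difference between fractions in the response of the cluster to the genotype was therefore not detectable at this depth and number of libraries.

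**Figure D3:**
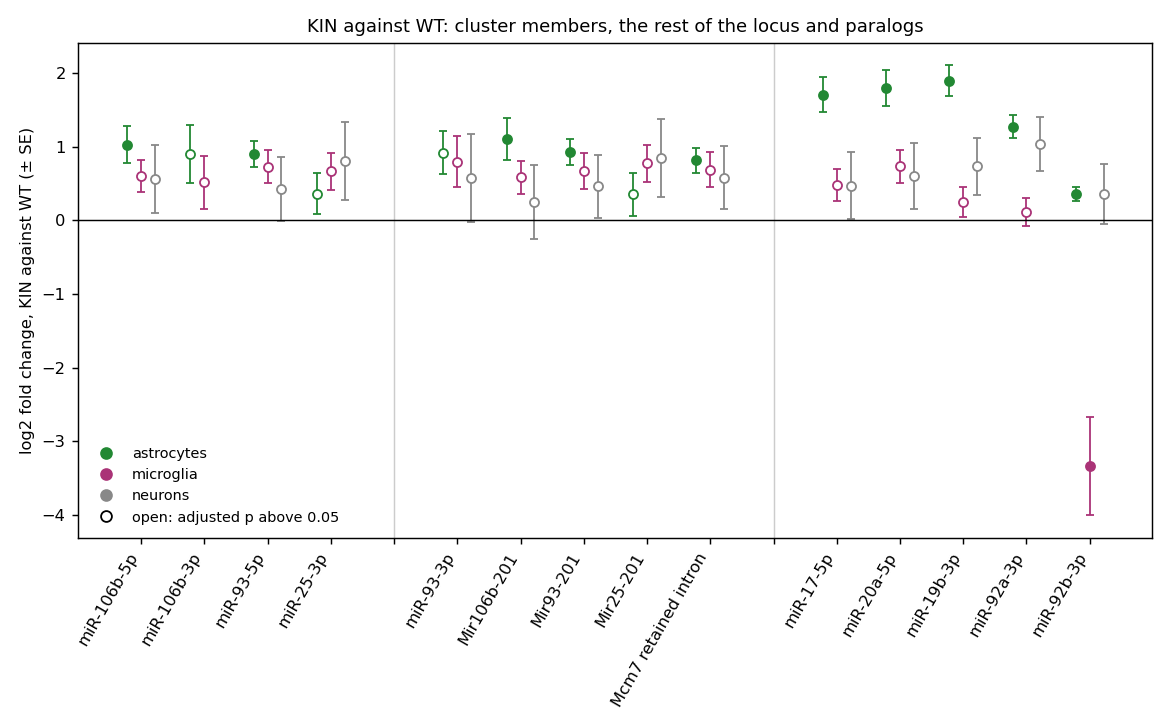
Log2 fold change of KIN against WT (vertical axis, ± SE) in astrocytes (green), microglia (magenta) and neurons (grey) for the 4 members, for the rest of the locus and for related miRNAs, with filled points where the adjusted p was at most 0.05. In astrocytes miR-106b-5p and miR-93-5p pass with their hairpins and the retained-intron transcript, the values of miR-25-3p and its hairpin (0.37 and 0.36) are the lowest of the locus, and the 4 miRNAs of the miR-17-92 cluster lie between 1.28 and 1.90, while miR-92b-3p in microglia lies at -3.34.

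The ratio of members within a library needs no scaling, and the ratios with miR-25-3p differed between the genotypes in astrocytes. The log2 ratio of miR-25-3p to miR-93-5p (0.5 added to each count) was -1.88 ± 0.11 in WT and -2.43 ± 0.32 in KIN astrocytes (SD, n = 3), that is, 27.1 and 18.5 counts of miR-25-3p per 100 of miR-93-5p. The WT libraries ranged from -1.99 to -1.78 and the KIN libraries from -2.80 to -2.22, without overlap. The log2 ratio of miR-25-3p to miR-106b-5p was likewise lower in KIN, -1.36 ± 0.13 in WT and -2.06 ± 0.29 in KIN, also without overlap. An exact two-sided permutation test gave p = 0.1 for both, the smallest value that 3 against 3 libraries allow, and 0.4 after adjustment over the 12 ratio tests. The same 2 groups did not overlap for 34.6% of the 87153 ratios of any 2 mature miRNAs tested in astrocytes, so the lack of overlap is not particular to these members.

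In neurons the ratio of miR-25-3p to miR-93-5p was higher in KIN, at -1.45 ± 0.29 in WT and -1.01 ± 0.24 in KIN, without overlap (exact permutation p = 0.1, adjusted p = 0.4), beside 20% of the ratios of any 2 mature miRNAs there. In microglia it was -1.65 ± 0.17 and -1.73 ± 0.10, with overlap, and there 40.9% of all miRNA ratios did not overlap. The ratio of miR-93-5p to miR-106b-5p, the members with a common seed, overlapped between genotypes in each fraction. Its means were 0.52 and 0.37 in WT and KIN astrocytes, 0.16 and 0.26 in microglia and -0.31 and -0.48 in neurons. Thus miR-93-5p had more counts than miR-106b-5p in all 12 glial libraries, and in neurons it had fewer in 5 of 6 libraries. The ratio leaves out reads counted on the hairpins, whose share differed between fractions. In neurons the Mir93 hairpin held 255 (WT) and 495 (KIN) counts beside 275 and 518 of miR-93-5p. The Mir106b hairpin held 179 and 294 beside 356 and 732 of miR-106b-5p. In WT microglia these were 1354 beside 2030 and 636 beside 1833. Whether the order of the members holds with hairpin reads added was not tested.

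The ratio of the arms of miR-106b, 5p over 3p, was 21.4 in WT and 23.5 in KIN astrocytes, 39.4 and 41.9 in microglia, and 57.3 and 92.5 in neurons (from mean log2 ratios). The neuronal values rest on 6 and 7 counts of miR-106b-3p per group. Genotypes overlapped in each fraction, with exact permutation p from 0.2 to 0.8.

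**Figure D4:**
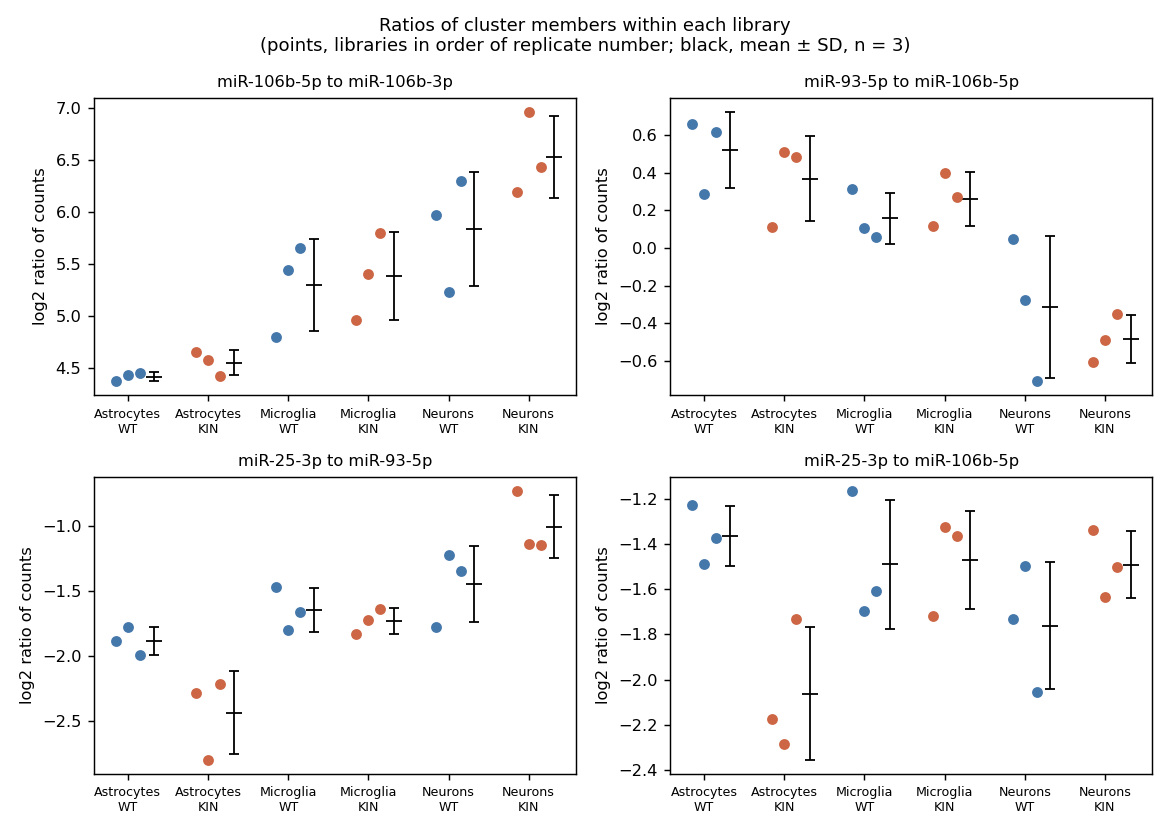
Log2 ratio of the counts of 2 members in each library (vertical axis) for 4 pairs, with WT in blue, KIN in orange and the mean ± SD in black. The ratio of miR-25-3p to miR-93-5p is lower in all KIN than in all WT astrocyte libraries and higher in all KIN than in all WT neuronal libraries, and the ratio of miR-93-5p to miR-106b-5p is highest in mean in WT astrocytes (0.52) and lowest in KIN neurons (-0.48).

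The summed members took 0.301% ± 0.005 of the mature miRNA counts in WT and 0.360% ± 0.023 in KIN astrocytes, without overlap. In microglia the share was 0.791% ± 0.010 and 0.774% ± 0.060, and in neurons 1.05% ± 0.38 and 1.24% ± 0.10. The exact permutation test gave p = 0.1 in astrocytes (0.3 after adjustment over 6 tests), 0.7 in microglia and 0.6 in neurons. As a share of all counts, the members went from 0.0195% to 0.0335% in astrocytes, also without overlap (exact permutation p = 0.1, adjusted p = 0.3). In CPM, 36.7% of all features and 39.5% of mature miRNAs did not overlap between these groups, so the lack of overlap is not particular to the members. No such percentage was computed for shares of mature miRNA counts.

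The comparison of fractions within a genotype asks where the cluster is most used, and these comparisons share libraries with one another and with those of the genotypes. In WT, miR-106b-5p was higher in microglia than in astrocytes by 1.42 ± 0.31 (log2, adjusted p = 0.00516), miR-25-3p by 1.30 ± 0.30 (adjusted p = 0.00700) and miR-93-5p by 1.09 ± 0.25 (adjusted p = 0.00700). The arm miR-106b-3p had 0.53 ± 0.47 and did not pass (adjusted p = 0.386). Of all features 34.0% passed in this comparison, and 14.4% were higher in microglia. Of mature miRNAs 61.0% passed and 24.2% were higher. In KIN the same 3 members were higher in microglia, by 0.93 ± 0.19 for miR-106b-5p, 0.84 ± 0.20 for miR-93-5p and 1.55 ± 0.26 for miR-25-3p (adjusted p = 0.00146, 0.00353 and 0.000259), beside 43.0% of all features in either direction and 19.6% higher. Of mature miRNAs 67.3% passed in KIN and 27.1% were higher. Both comparisons kept these signs with the libraries scaled on mature miRNAs.

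Against microglia, the neuronal fraction was lower in 3 of 4 members in WT, by -2.02 ± 0.45 for miR-93-5p (adjusted p = 0.00633), -1.71 ± 0.54 for miR-25-3p (adjusted p = 0.0335) and -1.50 ± 0.48 for miR-106b-5p (adjusted p = 0.0376) on the log2 scale, beside 28.1% of all features in either direction. In KIN all 4 were lower, from -1.62 ± 0.29 for miR-106b-5p to -2.83 ± 0.57 for miR-106b-3p, beside 57.6% of all features. Of mature miRNAs 63.8% passed in WT and 86.9% in KIN, in either direction. Yet the mature miRNAs as a class had medians of -2.56 in WT and -3.09 in KIN, so all members' values lay nearer to 0 than the median of their comparison. With WT microglia replicate 1, 2 or 3 or WT neurons replicate 1 or 3 left out, 1 of 4 members passed in WT, miR-93-5p. In these fits between 866 and 1238 features passed, against 1452, and the estimates were -1.75 to -1.07 for miR-106b-5p and -1.81 to -1.29 for miR-25-3p. Scaled on mature miRNAs alone, the values turned to 0.47 and 0.84 for miR-106b-5p and to 0.18 and 0.83 for miR-25-3p in WT and KIN, and to 0.08 for miR-93-5p in KIN (-0.09 in WT). In KIN, miR-106b-5p and miR-25-3p then passed as higher in neurons (adjusted p = 0.0111 and 0.0172).

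Between neurons and astrocytes no member passed in WT, with values of -0.20 ± 0.53, -1.51 ± 0.80, -1.05 ± 0.47 and -0.51 ± 0.56 for miR-106b-5p, miR-106b-3p, miR-93-5p and miR-25-3p (adjusted p from 0.111 to 0.782), while 30.7% of all features passed. Of mature miRNAs 64.1% passed. Deviations of libraries with the same replicate number correlated in this comparison (0.194, 0.441 and 0.249), though not every library did so best with its own number. With the number as a block miR-93-5p passed at -1.19 ± 0.40 (adjusted p = 0.0114 in edgeR). In KIN, miR-93-5p was lower in neurons by -1.47 ± 0.22 (adjusted p = 4.63e-09), miR-106b-5p by -0.61 ± 0.22 (adjusted p = 0.0135) and miR-106b-3p by -2.67 ± 0.58 (adjusted p = 4.12e-05), beside 55.3% of all features and 88.4% of mature miRNAs. The call of miR-106b-5p was lost in DESeq2 (-0.52, adjusted p = 0.0802), with library totals (-0.36, adjusted p = 0.202), without the count filter, in the fit of all 18 libraries and without KIN astrocytes replicate 1 or KIN neurons replicate 2 or 3 (adjusted p from 0.0579 to 0.222 over these 7). For miR-25-3p the value was -0.01 ± 0.28 (adjusted p = 0.979). On the scale of mature miRNAs all 4 turned positive in both genotypes, with 2.17 and 2.50 for miR-106b-5p, 1.26 and 1.64 for miR-93-5p, 1.78 and 3.06 for miR-25-3p and 0.69 and 0.36 for miR-106b-3p in WT and KIN. Of these, the first 3 passed in both genotypes.

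The share of features that passed as higher moved with the scaling too. In astrocytes 290 of 691 features were higher in KIN, against 479 of 813 in DESeq2, 188 of 675 with library totals and 16 of 1707 with scaling on mature miRNAs. In microglia these numbers were 79 of 217, 197 of 475, 33 of 166 and 26 of 335. Between neurons and astrocytes in WT, 652 of 1815 features were higher in neurons, and 2933 of 3111 with scaling on mature miRNAs. In KIN these were 1350 of 2764 and 4176 of 4404. Against microglia, the neuronal fraction had 688 of 1452 and 2899 of 3119 higher features in WT, and 1386 of 2809 and 3721 of 4041 in KIN.

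**Figure D5:**
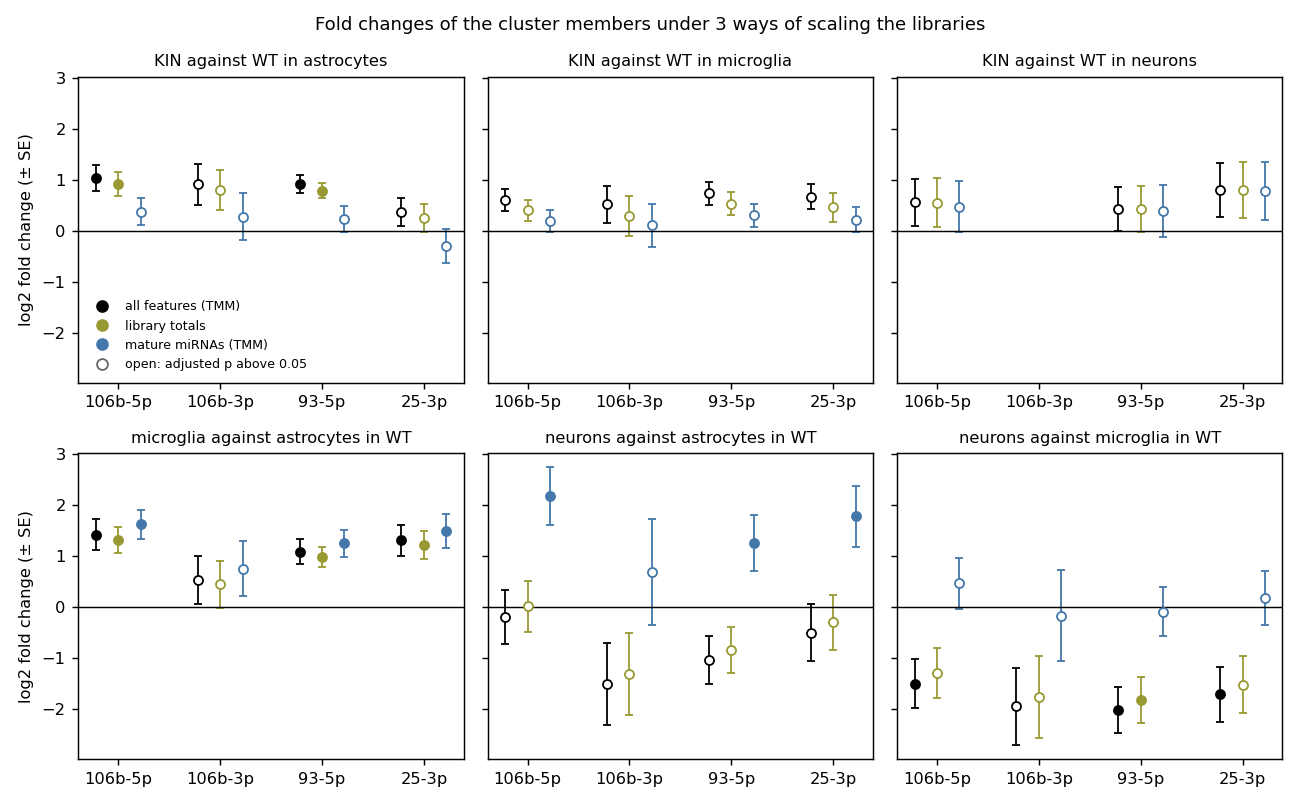
Log2 fold change (vertical axis, ± SE) of the 4 members in 6 comparisons with libraries scaled on all features with TMM factors (black), on library totals (olive) and on mature miRNAs (blue), with open points where the adjusted p was above 0.05. In WT, microglia exceed astrocytes on each scale, while the blue points of neurons against astrocytes (0.69 to 2.17) lie on the other side of 0 from the black ones (-1.51 to -0.20).

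Related miRNAs were followed in 4 lists fixed by sequence and genome position. In the seed family of miR-106b-5p and miR-93-5p, 2 of the 4 relatives could be tested in astrocytes and both rose in KIN, miR-17-5p by 1.71 ± 0.24 (adjusted p = 0.00448) and miR-20a-5p by 1.80 ± 0.24 (adjusted p = 0.00431). Their levels went from 35.5 ± 10.5 to 107 ± 11.1 CPM and from 56.6 ± 19.6 to 182 ± 20.3 CPM. In microglia they had 0.48 and 0.73 and did not pass. The others, miR-106a-5p and miR-20b-5p of the X-linked paralog cluster miR-106a-363, had at most 11 counts in any library and passed in no comparison of KIN with WT. Of that cluster's 10 miRNAs, 5 had any count and 2 could be tested, in neurons alone, where neither passed.

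In the seed family of miR-25-3p, 3 of 5 relatives could be tested in astrocytes. Of these, miR-92a-3p rose by 1.28 ± 0.16 (adjusted p = 0.00362) and miR-92b-3p by 0.35 ± 0.10 (adjusted p = 0.0427), and the one that did not pass, miR-32-5p (named here after its values were seen), had 1.20 ± 0.37 (adjusted p = 0.0604). In microglia miR-92b-3p fell by 3.34 on the log2 scale (SE 0.66, adjusted p = 0.0291), from 36.5 ± 26.2 to 2.91 ± 0.92 CPM, while miR-92a-3p had 0.12 ± 0.19. Between the same microglia libraries the arms of miR-9 summed to 82.3 to 245 CPM in WT and 59.1 to 68.6 CPM in KIN. The neuronal miRNAs summed to 64.5 to 168 and 51.5 to 60.7 CPM, and the epithelial ones to 31.96 to 57.3 and 4.13 to 9.50 CPM. Mural (vessel wall) miRNAs were also lower in KIN, at 145.1 to 201.5 and 59.4 to 135.7 CPM. The oligodendrocyte miRNAs were higher in KIN, at 19.3 to 21.5 and 22.6 to 32.7 CPM. So were erythroid (red blood cell) miRNAs, at 17.3 to 22.2 and 28.6 to 131 CPM. Each of these sums differed without overlap, as did 26.6% of all features there in either direction. The part of these markers in the result was not tested. Of the 12 miRNAs of the miR-17-92 cluster 8 were tested in astrocytes and 7 passed, all higher, with a median log2 fold change of 1.85 beside 0.91 for the members of miR-106b-25 and 0.58 for all mature miRNAs. Among the 4 with the smallest p was miR-19b-3p, which rose by 1.90 ± 0.21 (adjusted p = 0.00170). In microglia 2 of 10 passed, both higher, with a median of 0.61. They were miR-18a-5p (1.13 ± 0.26, adjusted p = 0.0469) and miR-17-3p (0.99 ± 0.22, adjusted p = 0.0419), which were named after their values were seen. The difference between the clusters was not tested.

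Finally, the miRNAs whose profiles over the 18 libraries were most like those of the members were sought among the 277 other miRNAs with a mean of at least 10 counts. Likeness was the root mean square difference of log2(CPM + 1) values after each profile was centred on its mean. For miR-106b-5p the nearest were miR-15b-5p (0.28), miR-25-3p (0.30) and miR-92a-3p (0.37), against a median of 1.45 over all 277. For miR-25-3p they were miR-106b-5p (0.30), miR-15b-5p (0.43) and miR-92a-3p (0.45), with a median of 1.49. For miR-93-5p the nearest was the other-seed neighbour miR-106b-3p (0.37), then miR-877-3p (0.40) and miR-106b-5p (0.40), with a median of 1.28. For miR-106b-3p they were miR-93-5p (0.37), miR-744-5p (0.41) and miR-30c-5p (0.41), with a median of 1.21. The nearest profiles thus included another member of the cluster in each of the 4 cases. The profiles share libraries and depth, and that of miR-106b-3p is compressed toward its mean by the added 1.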

How the data were processed

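Small RNA libraries (smallRNA-Seq kit of GenXPro) of MACS-sorted brain cells were analysed from the deposited table. The authors trimmed reads with Cutadapt 4.6 (reads of at least 20 bases), placed them with Bowtie2 2.4.4 in local mode in successive rounds on mature miRNAs, tRNAs, piRNAs, Ensembl noncoding and then coding transcripts of mm39, and counted them with HTSeq 2.0.2 without strand. The values used are the deposited raw counts of each feature, without normalization. Whether molecular identifiers were collapsed is not stated for these libraries, so floors cover counting error only. A further 36 columns of per-library values and 18 of group values on other scales were not used, nor were 15 columns with the authors' own comparisons (means, log2 fold changes and p-values).

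Groups came from sample titles. A feature was tested if 2 or more fitted libraries held 5 or more counts of it, with edgeR 4.0.16 (R 4.3.3, glmQLFit, robust, TMM factors on totals), each comparison in a fit of its own libraries, with Benjamini-Hochberg adjustment over all features and SE = |log2 fold change| divided by the square root of F. Passed means an adjusted p of at most 0.05. The study's cutoff also asks for a log2 change of 1 or more in size. CPM values are scaled to library totals without TMM factors. Ratios and shares were compared by exact permutation (SciPy 1.17.1), for which 3 against 3 libraries allow no p under 0.1. The test was checked on simulated counts. No 2 libraries of a group agreed within sampling noise. Libraries of a group are biological replicates per the labels.

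The replicate numbers were checked for pairing by the correlation of deviations from group means over 1771 features. All 3 exceeded 0.1 for microglia against astrocytes in WT (0.409, 0.359 and 0.171) and neurons against astrocytes in WT (0.194, 0.441 and 0.249). They did not in any other comparison. In none of the comparisons did every library correlate best with the one of its own number.

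Named were the members, the rest of the locus, up to 4 miRNAs per list that passed for KIN against WT (otherwise the 2 most abundant) and the 3 most similar miRNAs per member. The members, lists and tests were chosen with earlier results of these data known. Positions are from GENCODE vM39 (GRCm39), and sequences from a RefSeq table of GRCm38.p6, matched by miRNA name for 15 of 15. Alternatives were DESeq2, other scalings, no count filter, a replicate block, leaving out libraries and 1 fit of all 18.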

Additional observations from a re-analysis of the deposited data

Results flagged for a closer look

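The change of the log2 ratio of miR-25-3p to miR-93-5p between KIN and WT was singled out because its direction was opposite in astrocytes and neurons, without overlap of the genotypes in either. It was -0.55 in astrocytes, where every KIN library was below every WT library, and 0.44 in neurons, where every KIN library was above, a difference of -0.99. When the genotype labels were permuted within each fraction (400 relabellings, chosen after the values were seen), the exact two-sided p was 0.005, the smallest this test allows, and 0.06 after adjustment over the 12 combinations of 4 ratios and 3 pairs of fractions, which does not pass. The ratio was singled out for its lack of overlap in opposite directions, and that alone fixes p at 0.005. The test therefore gives no support beyond the choice. The neuronal values rest on 9 to 130 counts of miR-25-3p per library. Ratios of any 2 mature miRNAs did not overlap between genotypes for 34.6% of pairs in astrocytes and 20% in neurons. The share of pairs that did so in opposite directions was not computed.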

How the results depend on the processing

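Of the values recomputed under the alternatives, 803 kept their side of the threshold and sign or, for counts, stayed within 1.5 times. Of the others, 48 moved, 36 no longer passed, 12 newly passed and 37 reversed sign, 19 of these with 1 library left out and 14 with scaling on mature miRNAs. The number of members that passed for KIN against WT in astrocytes (2) became 0 with scaling on mature miRNAs and 0 in 1 fit of all 18 libraries, and it ranged from 0 to 4 when libraries were left out in turn. In microglia (0) it became 1 in DESeq2 and ranged from 0 to 2. For neurons against astrocytes in WT (0) it became 3 with scaling on mature miRNAs, 1 with the replicate block and 1 in the fit of all libraries, and ranged from 0 to 2, highest without neurons replicate 2. For neurons against microglia in WT (3) it became 1 with library totals and 0 with scaling on mature miRNAs, and ranged from 1 to 4. It became 1 for microglia against astrocytes in KIN (3) in the fit of all libraries, and 2 for neurons against microglia in KIN (4) with scaling on mature miRNAs. The cause was not tested.

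With scaling on mature miRNAs, miR-25-3p had -0.30 for KIN against WT in astrocytes, and neurons against astrocytes had 2.17, 0.69, 1.26 and 1.78 in WT and 2.50, 0.36, 1.64 and 3.06 in KIN (miR-106b-5p, miR-106b-3p, miR-93-5p, miR-25-3p). Neurons against microglia had 0.47 (miR-106b-5p) and 0.18 (miR-25-3p) in WT, and 0.84, 0.0821 and 0.83 (miR-106b-5p, miR-93-5p, miR-25-3p) in KIN. With library totals, miR-106b-5p had 0.016 for neurons against astrocytes in WT, miR-106b-3p -0.0553 for microglia against astrocytes in KIN, and miR-25-3p 0.24 for neurons against astrocytes in KIN (0.0731 in DESeq2).

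With 1 library left out, values near 0 crossed it. For neurons against astrocytes, miR-106b-5p in WT ranged from -0.63 to 0.29 (positive without astrocytes replicate 2 or neurons replicate 1), and miR-25-3p in KIN from -0.38 to 0.10. For microglia against astrocytes in KIN, miR-106b-3p ranged from -0.0568 to 0.20. The interaction of microglia minus astrocytes ranged from -0.57 to 0.0298 for miR-93-5p (positive without KIN microglia replicate 1) and from -0.15 to 0.55 for miR-25-3p (negative without WT astrocytes replicate 2). Of the log2 ratios, KIN minus WT, in microglia miR-106b-5p to miR-106b-3p ranged from -0.16 to 0.30, miR-25-3p to miR-93-5p from -0.16 to 0.0039 and miR-25-3p to miR-106b-5p from -0.0837 to 0.18, and in neurons miR-93-5p to miR-106b-5p from -0.37 to 0.0089. The share of mature miRNA counts ranged from -0.0459 to 0.0138 percentage points in microglia and from -0.0219 to 0.332 in neurons.

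Where all 3 correlations of libraries with the same number exceeded 0.1, the block moved miR-93-5p for neurons against astrocytes in WT past the threshold (-1.19, adjusted p = 0.0114 in edgeR) and changed no other call of a member. Those correlations do not establish pairing, because not every library was most like the one of its own number. For KIN against WT no label says whether equal numbers mark a pair of animals, and the correlations ran from -0.44 to 0.334. There the block gave 1.08 for miR-106b-5p and 0.93 for miR-93-5p in astrocytes (adjusted p = 0.0119 and 0.00254 in edgeR). Of all features 1021 then passed in astrocytes, against 691, and 0 in microglia, against 217. Because pairing is not established, the block adds no support to the calls. The arm miR-106b-3p had at most 24 counts in any library.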
